A study of Mus musculus with 9 samples.

Results

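Gene expression in mouse lung 6 hours after high-stretch ventilation (VILI 6 h) was compared with that in lungs taken as ventilation ended (VILI 0 h), to see which genes had moved back and which rose between the times. VILI stands for ventilator-induced lung injury. The comparison used 6 of the 9 libraries, 3 of VILI 6 h and 3 of VILI 0 h, and every protein-coding gene with a mean of at least 1 FPKM over the 9 libraries, which left 13079 of 27203 gene identifiers. FPKM is a level scaled to both the length of the transcript and the size of the library, and it was summed over all rows of a gene. The RNA came from whole lungs of male C57BL/6 mice aged 6 to 8 weeks. Both VILI groups had been anaesthetised with ketamine and xylazine, intubated and then ventilated with air (tidal volume 20 ml/kg) over 4 hours. The 3 control mice were intubated and not ventilated, and their libraries gave the level that a gene moved back to or away from. Control was a single group with no later time point, so hours after ventilation and hours after anaesthesia cannot be told apart. Each library came from 1 mouse, so that a group holds 3 mice.

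Overstretch of the alveolar wall is known to start a fast response of immediate early genes and stress chaperones, followed by chemokines and cytokines that depend on the transcription factor NF-kB and draw neutrophils and monocytes from the blood. Acute-phase proteins, which bind iron, lipids or microbes, and matrix proteins that prepare repair are slower products of the same signals. Stress hormones and fasting raise another set of genes, and resident alveolar macrophages, which clear surfactant and debris, can lose their identity genes during acute inflammation.

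The 3 VILI 6 h libraries were unlike each other. Over the 13079 genes, replicate 1 had a mean Spearman correlation of 0.969 with the control libraries, 0.957 with the VILI 0 h libraries and 0.930 with the other VILI 6 h libraries. Replicate 3 lay farthest from control, at 0.907, and replicate 2 was closest to VILI 0 h, at 0.972. Summed over 16 neutrophil genes, the level was 527 FPKM in replicate 1, 1117 in replicate 2 and 2298 in replicate 3, against 608.8 to 1104 in VILI 0 h and 64.6 to 75.6 in control. Summed over 7 erythroid genes it was 499 FPKM in replicate 1, against 3468 and 3883 in the other VILI 6 h libraries and 4933 to 5438 in VILI 0 h. In bulk tissue, fewer cells of a type and less RNA per cell cannot be told apart. Results are therefore given with all libraries and, where a call depends on it, without replicate 1 or replicate 3 of VILI 6 h, and the part that this spread plays in a result was not tested.

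With all libraries, 636 genes rose and 728 fell between VILI 0 h and VILI 6 h at an unadjusted P under 0.05 (limma on log2(FPKM + 0.1)). These were 4.86% and 5.57% of the genes tested, 10.4% together. After Benjamini-Hochberg adjustment with limma no gene passed 0.05 (0%), although 1364 did so before it, and the lowest adjusted p was 0.126. Below, a gene that rose, fell or was called is one of the 1364, given, apart from 3 genes whose exact zeros are described, with its log2 difference, standard error and adjusted p. In 1658 genes (12.7%) the 3 VILI 6 h libraries did not overlap the 3 VILI 0 h libraries. The same threshold called 16.5% of genes for VILI 0 h against control and 21.7% for VILI 6 h against control. Without VILI 6 h replicate 1, 1065 genes (8.14%) rose and 2140 (16.4%) fell, and 351 (2.68%) had an adjusted p under 0.05. Without replicate 3, 724 (5.54%) rose and 646 (4.94%) fell. Replicate 1 was singled out after its values were seen, so the adjusted calls of the fit without it are a description and not support. List counts from either fit are to be read beside these shares. Of the 1364 genes called with all libraries, 1080 were also called without replicate 1 and 850 without replicate 3. The median log2 difference over all genes tested was -0.03, so a rise or fall below is also one relative to the typical gene. The filter on mean FPKM let in 94 genes only through their VILI 6 h level, with a mean under 1 FPKM over the 6 other libraries, and 29 of these were among the 636 that rose. Such genes had to be higher at VILI 6 h than in the mean of the 6 other libraries, so they are named beside the counts of their lists.

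**Figure D1:**
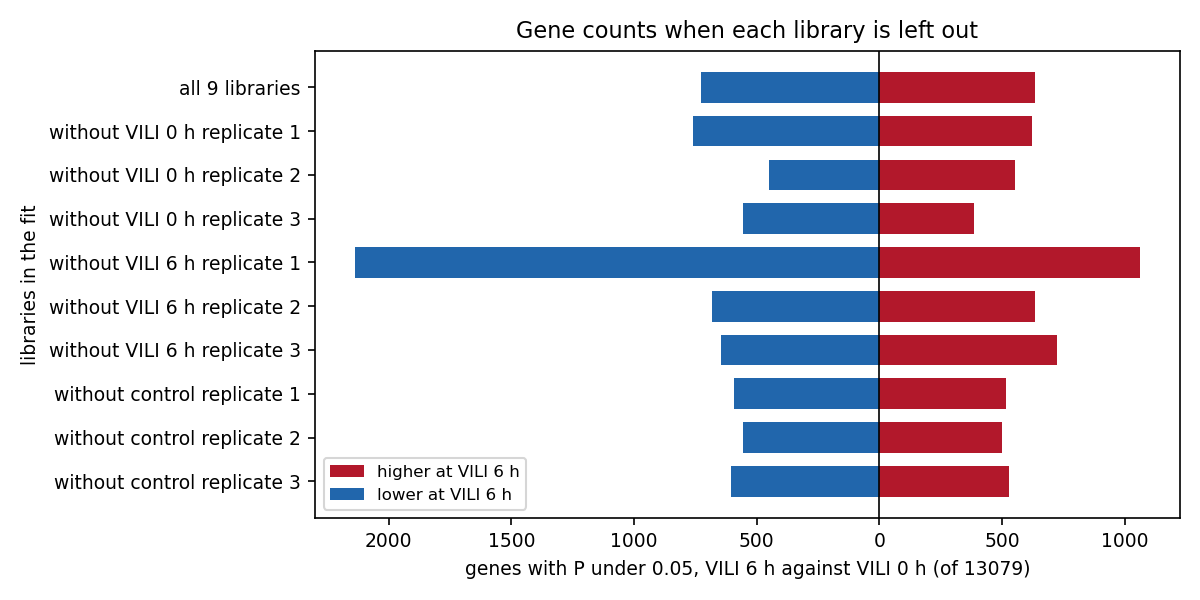
Number of genes with P under 0.05 for VILI 6 h against VILI 0 h, higher to the right and lower to the left of 0, with all 9 libraries and with each library left out in turn. Leaving out VILI 6 h replicate 1 gave 1065 higher and 2140 lower genes, against 636 and 728 with all libraries.

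The 1364 genes were of 4 kinds by their place relative to control. The first, 360 returning genes, differed from control at VILI 0 h and then moved the opposite way by VILI 6 h: 188 had been raised and fell, and 172 had been lowered and rose. Of these, 16 and 13 also differed from control at VILI 6 h. Of the 16 that fell, 8 were still above control and 8 had gone below it, and of the 13 that rose, 8 were still below and 5 had gone above. The second, 513 late genes, did not pass the test at VILI 0 h but differed at VILI 6 h from both VILI 0 h and control, 233 upwards and 280 downwards. A late gene can already have moved by VILI 0 h without passing the test, as Lcn2 and Cd177 below. A further 59 genes moved in the same direction in both intervals, 34 upwards and 25 downwards, and the remaining genes, 197 upwards and 235 downwards, were of none of these kinds. All the comparisons share libraries, so these numbers describe the genes and are not separate evidence. Without VILI 6 h replicate 1 the fit gave 395 returning, 1786 late and 556 further genes, and without replicate 3 it gave 565, 358 and 40.

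Genes of acute-phase and secreted defence proteins gave several of the largest late rises. Of 19 tested in that list, 9 rose and none fell, with a median log2 difference of 1.19 against -0.03 over all genes. Over the fits without 1 library the list median went from 0.43 without VILI 6 h replicate 3 to 1.42 without VILI 6 h replicate 1. Saa1, Saa2 and Ptx3 were tested only through their VILI 6 h level, and 6 of the 16 other genes rose, with a median of 0.82. Saa3 (chr7:46711998-46715700), the serum amyloid A made outside the liver, stood at 16.5, 58.3 and 460.3 FPKM in VILI 6 h replicates 1, 2 and 3. It stood at 0.921, 6.83 and 0.951 FPKM in VILI 0 h and 1.08, 2.83 and 0.922 FPKM in control. The VILI 6 h libraries lay above all 6 others, from nearest to farthest in the order of replicates 1, 2 and 3 (log2 difference 5.29 ± 1.16, adjusted p = 0.203). Its relatives Saa1 (3.86 ± 1.60, adjusted p = 0.453) and Saa2 (4.06 ± 1.53, adjusted p = 0.412) rose too, though both were listed at 0 in VILI 6 h replicate 1. Saa2 read 0, 4.97 and 13.9 FPKM in VILI 6 h, and Saa1 read 0, 3.73 and 19.05. Because these paralogs resemble one another, reads may have been split between them. Leaving out 1 library at a time ended the call of Saa1 (7 of the 9 libraries) and Saa2 (4 of the 9 libraries). Over the fits that left out 1 library, the log2 difference ranged from 4.0 (without VILI 6 h replicate 3) to 6.39 (without VILI 6 h replicate 1) for Saa3 and from 2.21 (without VILI 6 h replicate 3) to 6.0 (without VILI 6 h replicate 1) for Saa1. Across the leave-one-out fits the log2 difference varied from 2.63 (without VILI 6 h replicate 3) to 6.2 (without VILI 6 h replicate 1) for Saa2.

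Ptx3, a secreted pattern recognition protein, rose from 0.356, 0.268 and 0.0803 FPKM to 0.415, 4.66 and 13.1 FPKM (log2 difference 3.35 ± 1.0, adjusted p = 0.308). Replicate 1 barely cleared the highest VILI 0 h library, and the other 2 lay far above it. Lcn2, which binds bacterial iron carriers, stood at 143, 95.4 and 104 FPKM in VILI 0 h and 152, 182 and 881 FPKM in VILI 6 h (log2 difference 1.37 ± 0.56, adjusted p = 0.451). Its control values were 55.4, 80.2 and 58.8 FPKM, so every VILI 0 h library already lay above control. Most of the rise of Lcn2 between the times was carried by replicate 3. C3, the central complement protein, went from 146, 167 and 147 FPKM to 229.6, 198 and 224 FPKM, with no overlap (log2 difference 0.50 ± 0.10, adjusted p = 0.158). Cfb, complement factor B, rose as well (1.34 ± 0.37, adjusted p = 0.283), as did the metalloreductase gene Steap4, at 11.99, 13.4 and 83.2 FPKM in VILI 6 h (1.97 ± 0.62, adjusted p = 0.337). In this list, 6 genes rose and none fell without replicate 3, and 13 rose and 1 fell without replicate 1. Calls that ended when 1 library was left out were those of Lcn2 (4 of the 9 libraries). With single libraries left out, the log2 difference spread from 2.33 (without VILI 6 h replicate 3) to 4.67 (without VILI 6 h replicate 1) for Ptx3 and from 0.56 (without VILI 6 h replicate 3) to 1.83 (without VILI 6 h replicate 1) for Lcn2. In fits without 1 library the log2 difference ran from 1.07 (without VILI 6 h replicate 3) to 2.47 (without VILI 6 h replicate 1) for Steap4.

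**Figure D2:**
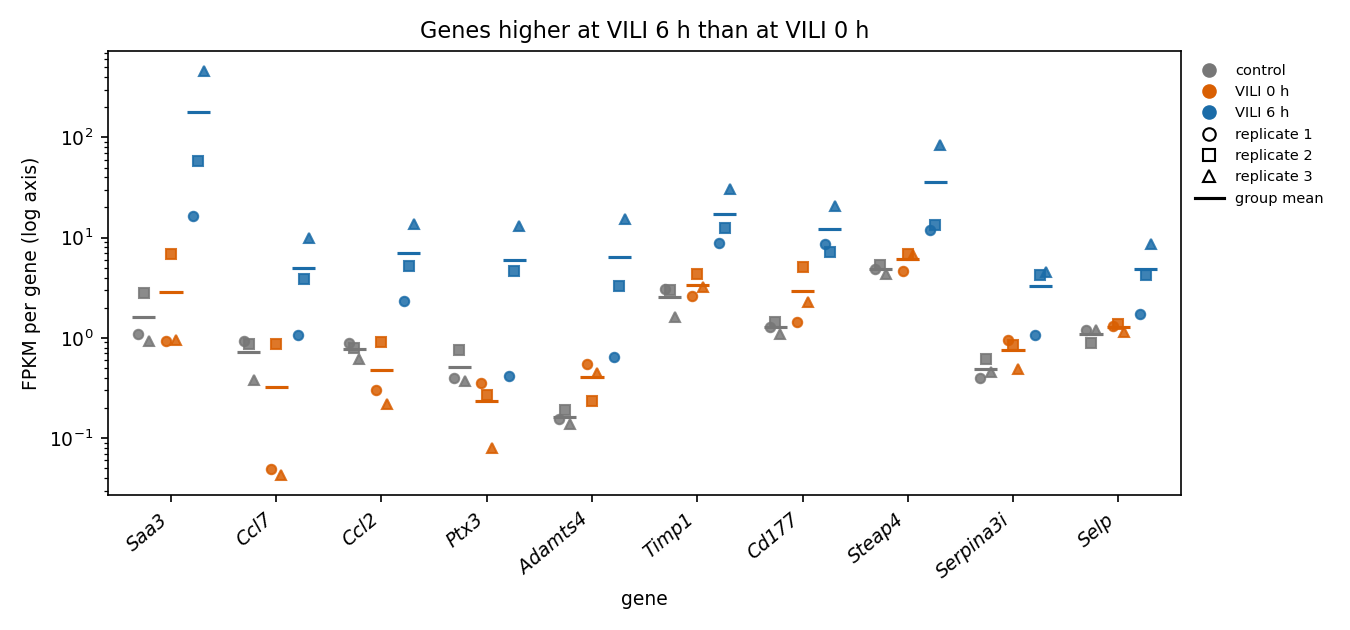
FPKM per gene on a log axis for 10 genes that rose between VILI 0 h and VILI 6 h, in control (grey), VILI 0 h (orange) and VILI 6 h (blue), with 1 marker shape per replicate and a bar at each group mean. The VILI 6 h libraries lie above the VILI 0 h libraries for all 10 genes, and replicate 3 is the highest of them, with Saa3 at 460.3 FPKM. Ccl7, Ccl2, Ptx3, Adamts4 and Serpina3i were tested only through their VILI 6 h level.

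The monocyte chemokine genes Ccl2 and Ccl7 were late genes that rose, and 10 of the 15 CC chemokine identifiers were not called. Ccl2, the main monocyte attractant, stood at 0.895, 0.797 and 0.609 FPKM in control, 0.302, 0.911 and 0.221 in VILI 0 h and 2.35, 5.27 and 13.6 in VILI 6 h (log2 difference 3.48 ± 0.62, adjusted p = 0.138). All VILI 6 h libraries were above all others, and the log2 difference was 4.08 without replicate 1 and 2.84 without replicate 3. Ccl7, which acts on the same receptor, read 0.0496, 0.879 and 0.0427 FPKM in VILI 0 h and 1.06, 3.89 and 9.89 in VILI 6 h (3.70 ± 0.91, adjusted p = 0.246). Ccl12 had been lower than control at VILI 0 h and rose (2.78 ± 0.83, adjusted p = 0.307). Ccl9 had been raised already and rose further (0.90 ± 0.36, adjusted p = 0.43). Among 15 gene identifiers of CC chemokines tested, 5 rose and none fell, with a median log2 difference of 0.90, which went from -0.07 without VILI 6 h replicate 3 to 1.31 without VILI 6 h replicate 1 over the fits without 1 library and was -0.09 in genes with a mean FPKM of at least 5. Ccl2, Ccl3, Ccl7 and Ccl20 were tested only through their VILI 6 h level, and 2 of the 11 others rose. The count was 6 up and 2 down without replicate 1, and 3 up and 2 down without replicate 3. The fifth, Ccl20, a ligand for dendritic cells and lymphocytes, read 1.88, 0.139 and 87.7 FPKM in VILI 6 h, so nearly all of its level came from replicate 3 (4.01 ± 1.73, adjusted p = 0.469). When single libraries were left out, the call was lost for Ccl9 (VILI 0 h replicate 1 or VILI 6 h replicate 3) and Ccl20 (8 of the 9 libraries). Over the fits that left out 1 library, the log2 difference ranged from 2.96 (without VILI 6 h replicate 3) to 4.62 (without VILI 0 h replicate 2) for Ccl7 and from 2.2 (without VILI 6 h replicate 3) to 3.72 (without VILI 0 h replicate 2) for Ccl12. Across the leave-one-out fits the log2 difference varied from 1.67 (without VILI 6 h replicate 3) to 5.93 (without VILI 6 h replicate 2) for Ccl20.

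Among neutrophil chemokines, Cxcl1 and Cxcl2 were highest in replicate 3 of VILI 6 h, while the sum over the 7 CXC genes tested was 594.4, 369.5 and 534.6 FPKM in replicates 1, 2 and 3, against 425 to 554.8 in VILI 0 h. In control the sum was already 241.9 to 331.4 FPKM, so it follows the most abundant genes of the list. Cxcl1 read 0.145, 1.33 and 0.288 FPKM in VILI 0 h and 0.762, 3.49 and 44.4 FPKM in VILI 6 h, with overlap between the groups (log2 difference 3.33 ± 1.23, adjusted p = 0.408). It was the only one of 7 tested CXC chemokines called with all libraries, while 4 rose and 1 fell without replicate 1 and none was called without replicate 3. Cxcl1, Cxcl3 and Cxcl5 were tested only through their VILI 6 h level, and none of the 4 others was called. Cxcl2 had the values 0.449, 1.68 and 4.84 FPKM in VILI 0 h and 2.30, 2.88 and 150.1 FPKM in VILI 6 h (adjusted p = 0.578). Cxcl10, an interferon-induced chemokine for T cells, was called (3.23 ± 1.38, adjusted p = 0.463) on the values 0.564, 2.15 and 59.3 FPKM. It was the only one of 22 interferon-stimulated genes called, and it too was tested only through its VILI 6 h level. Without replicate 1, 6 of the 22 were called upwards, and without replicate 3, 5 were called downwards. Fits without 1 library lost the call of Cxcl1 (3 of the 9 libraries) and Cxcl10 (6 of the 9 libraries). With single libraries left out, the log2 difference spread from 1.77 (without VILI 6 h replicate 3) to 4.62 (without VILI 6 h replicate 1) for Cxcl1 and from 1.36 (without VILI 6 h replicate 3) to 4.61 (without VILI 6 h replicate 1) for Cxcl10.

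Of 16 cytokine genes, Il6 and Csf2 rose. Il6, the inducer of acute-phase genes, read 0.386, 0.0961 and 0.162 FPKM in VILI 0 h and 0.306, 1.58 and 19.3 in VILI 6 h (log2 difference 3.02 ± 1.16, adjusted p = 0.419), with replicate 1 inside the VILI 0 h range. Csf2, a growth factor of granulocytes and macrophages, rose by a smaller step (1.25 ± 0.52, adjusted p = 0.454). Without replicate 1, 3 of the 16 rose and 1 fell, and without replicate 3 none rose and 2 fell. Il6, Csf3, Lif and Tnf were tested only through their VILI 6 h level, and 1 of the 12 others, Csf2, rose. The alarm cytokine Il1b stood high at both times, at 19.6, 32.5 and 82.7 FPKM in VILI 0 h and 26.4, 14.00 and 83.4 in VILI 6 h, against 3.27, 4.48 and 4.95 in control (adjusted p = 0.933). Among genes of interleukin 6 family signalling, those that rose were Osmr (0.87 ± 0.30, adjusted p = 0.38), Il6st (0.58 ± 0.17, adjusted p = 0.298) and Stat3 (0.41 ± 0.17, adjusted p = 0.44), while Lifr, the leukaemia inhibitory factor receptor, fell (-0.63 ± 0.11, adjusted p = 0.138). Together 7 of 21 cytokine receptor and SOCS genes rose and 1 fell. The other 4 that rose were the interleukin 1 receptor gene Il1r1 (0.43 ± 0.18, adjusted p = 0.463), the tumour necrosis factor receptor genes Tnfrsf1a (0.34 ± 0.15, adjusted p = 0.469) and Tnfrsf1b (0.69 ± 0.25, adjusted p = 0.403), and Socs1, described further on. Without replicate 1, 11 of the 21 rose and 1 fell, and without replicate 3, 3 rose and 1 fell. Leaving out 1 library at a time ended the call of Il6 (3 of the 9 libraries), Csf2 (5 of the 9 libraries), Osmr (VILI 6 h replicate 2 or 3), Stat3 (5 of the 9 libraries), Il1r1 (6 of the 9 libraries), Tnfrsf1a (8 of the 9 libraries) and Tnfrsf1b (4 of the 9 libraries). In fits without 1 library the log2 difference ran from 1.5 (without VILI 6 h replicate 3) to 4.29 (without VILI 6 h replicate 1) for Il6 and from 0.56 (without VILI 6 h replicate 3) to 1.69 (without VILI 6 h replicate 2) for Csf2.

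Of 18 NF-kB factors and feedback inhibitors tested, 8 rose at VILI 6 h, 10 were not called and none fell, with a median log2 difference of 0.57. The median went from 0.22 without VILI 6 h replicate 3 to 0.96 without VILI 6 h replicate 1 over the fits without 1 library, and Tnip3, not called, was tested only through its VILI 6 h level. The 5 subunit and cofactor genes were Nfkb1 (0.29 ± 0.11, adjusted p = 0.431), Nfkb2 (0.82 ± 0.26, adjusted p = 0.347), Rela (0.34 ± 0.12, adjusted p = 0.38), Relb (1.03 ± 0.35, adjusted p = 0.374) and Bcl3 (1.18 ± 0.38, adjusted p = 0.347). Nfkb2 stood at 8.61, 10.6 and 8.93 FPKM in VILI 0 h and 15.2, 11.2 and 26.4 FPKM in VILI 6 h. For Nfkb1, Nfkb2, Rela and Relb the groups did not overlap, and for Bcl3 they did. The other 3 were Tnfaip2 (1.28 ± 0.50, adjusted p = 0.43), Tnip1, which holds the pathway back (0.77 ± 0.31, adjusted p = 0.439), and Irak3, a brake on Toll-like receptor signals (0.72 ± 0.28, adjusted p = 0.419). The classic inhibitor Nfkbia was high at VILI 0 h, at 112, 114 and 146 FPKM, and spread widely at VILI 6 h, at 52.5, 185 and 360.4 FPKM (adjusted p = 0.898). Without replicate 1, 12 of the 18 rose and none fell, and without replicate 3, 4 rose and 1 fell. Calls that ended when 1 library was left out were those of Nfkb1 (3 of the 9 libraries), Rela (VILI 0 h replicate 3 or VILI 6 h replicate 3), Relb (VILI 0 h replicate 3 or VILI 6 h replicate 3), Tnfaip2 (VILI 0 h replicate 1 or 3), Tnip1 (VILI 0 h replicate 1 or 3) and Irak3 (5 of the 9 libraries). Over the fits that left out 1 library, the log2 difference ranged from 0.55 (without VILI 6 h replicate 3) to 1.69 (without VILI 6 h replicate 2) for Tnfaip2.

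Promoter stretches of 5 genes of these groups that rose are shown because each holds a match to the NF-kB consensus, in capitals. The 5 were picked from a search of more genes that rose. Saa3, Ccl2, Ccl7, Lcn2, Icam1, Ptx3, Timp1, Relb and Bcl3 were searched too and gave no stretch. For these, no match lay upstream or no promoter was listed. The stretches shown are RefSeq sequences of build GRCm38.p6, read 5′ to 3′ on the gene's own strand and lying upstream of the transcription start.
Cxcl1 (chr5:90891135-90891194, plus strand): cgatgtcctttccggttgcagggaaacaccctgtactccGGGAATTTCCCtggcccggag
Ccl20 (chr1:83116646-83116705, plus strand): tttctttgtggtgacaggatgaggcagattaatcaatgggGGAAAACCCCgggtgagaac
Il6 (chr5:30013030-30013089, plus strand): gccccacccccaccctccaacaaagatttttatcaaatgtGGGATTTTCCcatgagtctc
Tnip1 (chr11:54962977-54963036, minus strand): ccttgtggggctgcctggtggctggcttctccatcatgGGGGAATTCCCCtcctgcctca
Nfkb2 (chr19:46304677-46304736, plus strand): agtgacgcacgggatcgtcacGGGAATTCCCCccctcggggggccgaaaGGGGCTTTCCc
Among tested genes with a RefSeq promoter (10222), 6.33% held the NF-kB motif on either strand within the 250 bases before and 50 after a start. The share was 14.0% in late genes that rose (26 of 186), 6.0% in late genes that fell, 5.96% in returning genes that fell and 6.15% in returning genes that rose. It was 53.3% in the list of NF-kB factors and inhibitors (8 of 15). Among immediate early genes, a list of 24 with 1 rise and 2 falls, it was 31.6% (6 of 19). These are counts of letters, and a match says nothing of whether the factor was bound.

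Of 11 leukocyte adhesion genes 2 rose, with a median log2 difference of 0.18, and of 15 endothelial markers 4 fell and 1 rose, where 4.86% of all genes rose and 5.57% fell. Icam1, which leukocytes grip on the vessel wall, read 97.9, 108 and 86.2 FPKM in VILI 0 h and 144, 141 and 279 FPKM in VILI 6 h (log2 difference 0.88 ± 0.23, adjusted p = 0.265). Selp, the P-selectin on which leukocytes first roll, rose from 1.30, 1.39 and 1.16 FPKM to 1.72, 4.22 and 8.65 FPKM (log2 difference 1.57 ± 0.47, adjusted p = 0.317). No adhesion gene fell. Ednrb, an endothelin receptor of capillary cells, fell from 46.7, 40.6 and 38.2 FPKM to 19.6, 33.3 and 25.97 FPKM (log2 difference -0.70 ± 0.17, adjusted p = 0.246). The transcription factor gene Erg fell by a smaller and more even amount (-0.34 ± 0.09, adjusted p = 0.265), as did Tie1 (-0.42 ± 0.14, adjusted p = 0.366) and Car4 (-0.39 ± 0.10, adjusted p = 0.246). Flt1, a receptor for vascular endothelial growth factor, rose (0.59 ± 0.16, adjusted p = 0.263). When single libraries were left out, the call was lost for Tie1 (VILI 0 h replicate 1 or 2). Across the leave-one-out fits the log2 difference varied from 1.02 (without VILI 6 h replicate 3) to 2.16 (without VILI 6 h replicate 1) for Selp.

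Of 17 matrix and repair genes tested, 7 rose, none fell and the others were not called. The median log2 difference was 0.41, with medians of 0.48, 0.48 and 0.66 in the 3 VILI 6 h libraries. Matrix genes outside this list, among them Dcn, Lum and Mfap5, fell, as given below. Timp1, an inhibitor of matrix metalloproteases, read 3.08, 2.97 and 1.62 FPKM in control, 2.62, 4.37 and 3.21 FPKM in VILI 0 h and 8.90, 12.5 and 30.5 FPKM in VILI 6 h (log2 difference 2.14 ± 0.43, adjusted p = 0.165). The 3 VILI 6 h libraries stood above all 6 others. Adamts4, which cuts proteoglycans, rose from 0.545, 0.237 and 0.445 FPKM to 0.649, 3.28 and 15.3 FPKM (log2 difference 2.79 ± 0.90, adjusted p = 0.347). Vcan, a proteoglycan of provisional matrix, read 2.81, 10.3 and 4.61 FPKM and then 13.3, 11.3 and 13.4 FPKM, and here the VILI 6 h libraries lay close together (log2 difference 1.29 ± 0.41, adjusted p = 0.341). Thbs1 (1.10 ± 0.32, adjusted p = 0.301) and Has1, a hyaluronan synthase (1.47 ± 0.58, adjusted p = 0.429), rose late, and Adamts9 rose from below its control level (0.86 ± 0.21, adjusted p = 0.246). Fn1, fibronectin, was called on the summed rows (0.52 ± 0.18, adjusted p = 0.38), but the row with its highest mean FPKM alone gave -0.12. The count of rises was 11 without replicate 1 and 7 without replicate 3. Adamts4 and Has1 were tested only through their VILI 6 h level, and 5 of the 15 others rose, with a median of 0.29. Fits without 1 library lost the call of Has1 (4 of the 9 libraries) and Fn1 (3 of the 9 libraries). With single libraries left out, the log2 difference spread from 1.7 (without VILI 6 h replicate 3) to 3.88 (without VILI 6 h replicate 1) for Adamts4 and from 0.92 (without VILI 0 h replicate 1) to 2.17 (without VILI 0 h replicate 2) for Has1.

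Other late rises came from varied groups. Cd177, a surface protein of neutrophils, rose from 1.45, 5.09 and 2.29 FPKM to 8.58, 7.12 and 20.5 FPKM (log2 difference 2.02 ± 0.48, adjusted p = 0.237). Its control values were 1.30, 1.44 and 1.09 FPKM, all below the VILI 0 h libraries. Sprr1a, a cornified envelope protein of stressed epithelium, rose with its highest VILI 6 h value in replicate 1 (0.567, 0.471 and 1.59 FPKM, then 3.71, 2.83 and 2.25 FPKM, log2 difference 1.78 ± 0.53, adjusted p = 0.305). Serpina3i, a protease inhibitor of a family with close paralogs, rose (1.78 ± 0.52, adjusted p = 0.301), and so did Tnfrsf9, a costimulatory receptor (1.77 ± 0.68, adjusted p = 0.419). Ugt1a1, whose last exons are shared with the rest of the Ugt1a family, read 3.01, 4.25 and 0.314 FPKM at VILI 6 h (2.82 ± 0.86, adjusted p = 0.321), with replicate 3 the lowest. Its values are therefore uncertain as those of 1 gene. Sprr1a, Serpina3i, Tnfrsf9 and Ugt1a1 were tested only through their VILI 6 h level. Slc39a8, a zinc importer, rose in all 3 libraries, from 73.6, 82.1 and 72.1 FPKM to 106, 103 and 147 FPKM (log2 difference 0.62 ± 0.14, adjusted p = 0.213). The zinc-binding metallothionein Mt2 had wider values, at 22.9, 455 and 1126 FPKM against 129.8, 55.2 and 72.6 FPKM in VILI 0 h (adjusted p = 0.701), with replicate 1 below all VILI 0 h libraries and the other 2 above them. Leaving out 1 library at a time ended the call of Tnfrsf9 (3 of the 9 libraries). In fits without 1 library the log2 difference ran from 1.43 (without VILI 6 h replicate 3) to 2.42 (without VILI 6 h replicate 1) for Serpina3i and from 0.87 (without VILI 6 h replicate 3) to 2.31 (without VILI 6 h replicate 2) for Tnfrsf9. Over the fits that left out 1 library, the log2 difference ranged from 2.17 (without VILI 6 h replicate 2) to 3.87 (without VILI 6 h replicate 3) for Ugt1a1.

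Growth and metabolism genes gave smaller changes. Of 28 ribosome biogenesis genes, 7 rose and none fell, with a median log2 difference of 0.26 and all 3 VILI 6 h libraries above the VILI 0 h mean by their medians (0.38, 0.18 and 0.17). They were the nucleolar helicase gene Ddx21 (0.39 ± 0.11, adjusted p = 0.281), Fbl, fibrillarin (0.45 ± 0.12, adjusted p = 0.283), Nop58 (0.56 ± 0.18, adjusted p = 0.335), Ppan (0.45 ± 0.14, adjusted p = 0.321), Rrp12 (0.62 ± 0.21, adjusted p = 0.377), Mybbp1a (0.31 ± 0.13, adjusted p = 0.47) and Polr1e, a subunit gene of RNA polymerase I (0.58 ± 0.26, adjusted p = 0.477). For Polr1e the row with the highest mean FPKM alone gave -0.38. The list median went from 0.16 without VILI 6 h replicate 1 to 0.29 without VILI 6 h replicate 3 over the fits without 1 library. In this list replicate 1 was the highest, and the count was 4 without it and 11 without replicate 3. Of 22 cell cycle genes, 4 rose and none fell: Ccnd1 (0.51 ± 0.17, adjusted p = 0.347) and Mcm3 (0.47 ± 0.13, adjusted p = 0.279) rose back towards control, and Birc5 (0.86 ± 0.36, adjusted p = 0.458) and Cdc20 (0.68 ± 0.25, adjusted p = 0.406) rose as well. Without replicate 1, where 8.14% of all genes rose and 16.4% fell, 12 rose and 2 fell, and without replicate 3, 2 rose and none fell. Ccnb1 and Plk1, not called, were tested only through their VILI 6 h level. Among 21 hypoxia and glycolysis genes 4 rose and 1 fell. Hexokinase 1, Hk1, rose from 11.7, 12.6 and 13.3 FPKM to 17.8, 20.1 and 17.03 FPKM, with no overlap (log2 difference 0.54 ± 0.11, adjusted p = 0.165). Ldha, which makes lactate (0.46 ± 0.14, adjusted p = 0.305), and the glycolytic enzyme genes Eno1 (0.29 ± 0.12, adjusted p = 0.47) and Pkm (0.19 ± 0.07, adjusted p = 0.419) rose, and Ankrd37 fell (-1.36 ± 0.46, adjusted p = 0.366). Without replicate 1, 8 of the 21 rose and 1 fell. Calls that ended when 1 library was left out were those of Rrp12 (VILI 0 h replicate 2 or VILI 6 h replicate 1), Mybbp1a (7 of the 9 libraries), Polr1e (8 of the 9 libraries), Birc5 (7 of the 9 libraries), Cdc20 (4 of the 9 libraries), Eno1 (7 of the 9 libraries), Pkm (5 of the 9 libraries) and Ankrd37 (VILI 0 h replicate 1 or VILI 6 h replicate 3).

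Returning genes that fell ended near or below control in the 3 examples given here. Abcg2 (chr6:58584523-58695676), an efflux pump for drugs and haem precursors, read 6.73, 6.98 and 7.27 FPKM in control, 15.7, 29.03 and 19.1 in VILI 0 h and 6.16, 8.68 and 7.93 in VILI 6 h. The VILI 0 h libraries stood above all others, and VILI 6 h was near control (log2 difference -1.44 ± 0.22, adjusted p = 0.127). Stc1, a secreted glycoprotein hormone, read 9.86, 4.81 and 4.73 FPKM and then 1.58, 2.16 and 1.90 FPKM, below control at 3.25, 3.04 and 3.01 FPKM (log2 difference -1.65 ± 0.27, adjusted p = 0.127). Hilpda, a protein of lipid droplets induced by hypoxia and fatty acids, went from 128, 61.6 and 66.2 FPKM to 26.7, 28.7 and 39.7 FPKM, against 41.6, 39.6 and 47.3 in control (log2 difference -1.36 ± 0.26, adjusted p = 0.148). None of these 3 overlapped between the times, and their fits without replicate 1 gave log2 differences of -1.30 for Abcg2, -1.54 for Stc1 and -1.25 for Hilpda. With the row of the highest mean FPKM in place of the sum, Abcg2 and Hilpda were not called.

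**Figure D3:**
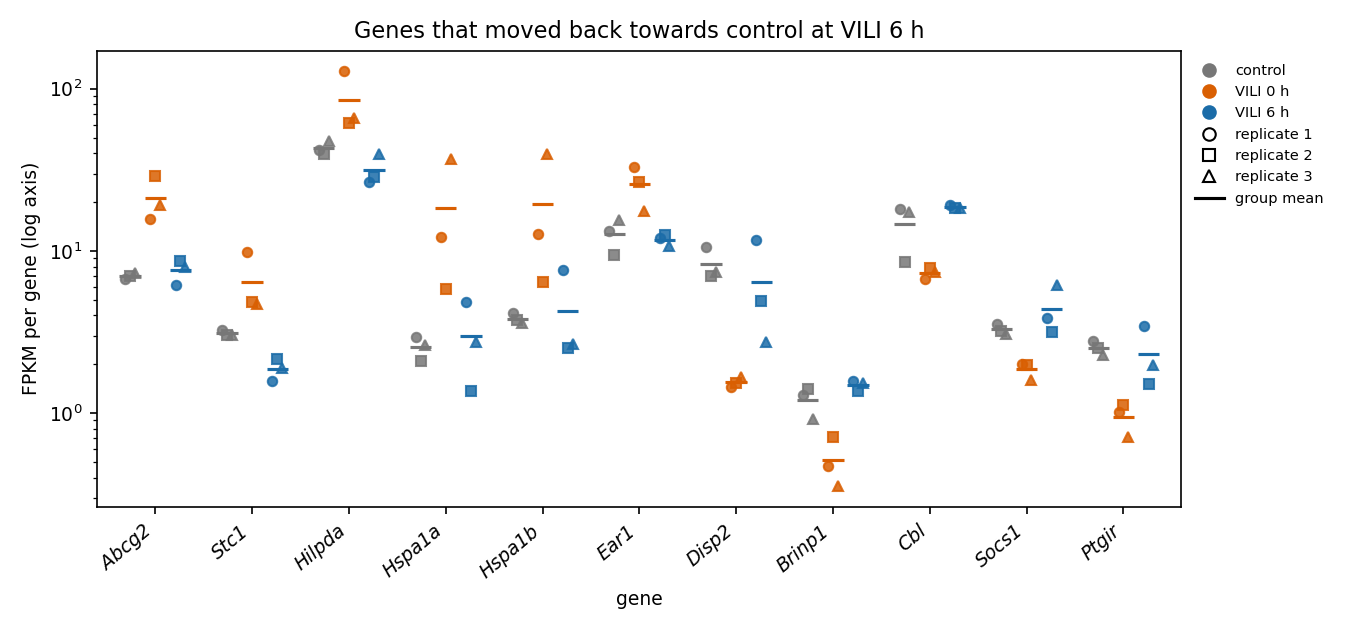
FPKM per gene on a log axis for 6 genes that were raised at VILI 0 h and fell (Abcg2, Stc1, Hilpda, Hspa1a, Hspa1b and Ear1) and 5 that were lowered and rose (Disp2, Brinp1, Cbl, Socs1 and Ptgir), in control (grey), VILI 0 h (orange) and VILI 6 h (blue), with 1 marker shape per replicate and a bar at each group mean. VILI 0 h stands apart from the other groups in most genes, and in Cbl the VILI 0 h libraries are 6.74, 7.87 and 7.38 FPKM against 19.1, 18.4 and 18.4 FPKM in VILI 6 h. Brinp1 was tested only through its VILI 6 h level.

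The inducible Hsp70 genes were the chaperones that fell. Hspa1a stood at 2.94, 2.08 and 2.62 FPKM in control, 12.2, 5.85 and 37.05 in VILI 0 h and 4.84, 1.37 and 2.75 in VILI 6 h (log2 difference -2.35 ± 0.63, adjusted p = 0.265). Hspa1b ran in parallel, with 12.6, 6.41 and 39.5 FPKM and then 7.66, 2.51 and 2.68 FPKM (log2 difference -1.95 ± 0.62, adjusted p = 0.341). The VILI 0 h libraries ranged widely, with replicate 3 highest for both genes. The pair is nearly identical in sequence, so reads cannot be assigned to 1 of them with certainty, and their printed promoter stretches, with the heat-shock motif in capitals, are the same (RefSeq, GRCm38.p6, 5′ to 3′ on the gene's strand).
Hspa1a (chr17:34972243-34972302, minus strand): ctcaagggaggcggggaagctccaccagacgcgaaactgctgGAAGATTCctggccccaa
Hspa1b (chr17:34959325-34959384, minus strand): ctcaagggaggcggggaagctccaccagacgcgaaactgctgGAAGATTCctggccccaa
The motif searched was GAANNTTC or TTCNNGAA, and 63.2% of heat-shock genes with a promoter held it (12 of 19), against 14.1% of all tested genes with one. Of 24 chaperone genes tested, 2 fell and 1 rose, with a median log2 difference of 0.02. The gene that rose was the small heat-shock protein gene Hspb1, at 41.2, 43.3 and 48.9 FPKM in control, 65.9, 64.3 and 90.9 in VILI 0 h and 108, 109 and 177 in VILI 6 h, so that both steps were upwards with no overlap (log2 difference 0.81 ± 0.21, adjusted p = 0.246). Without replicate 1, in which the chaperone median was higher (0.49) than in replicates 2 and 3 (-0.18 and -0.26), 7 chaperones fell. In that fit 16.4% of all genes fell. Across the leave-one-out fits the log2 difference varied from -2.96 (without VILI 0 h replicate 2) to -1.64 (without VILI 0 h replicate 3) for Hspa1a and from -2.55 (without VILI 0 h replicate 2) to -1.25 (without VILI 0 h replicate 3) for Hspa1b.

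The kinase gene Clk1, which controls splicing factors by phosphorylation, was among the genes with the lowest adjusted p. It read 96.4, 92.8 and 121 FPKM in control, 147, 139 and 164 in VILI 0 h and 86.6, 76.8 and 65.8 in VILI 6 h, so the fall went past the control level (log2 difference -0.98 ± 0.14, adjusted p = 0.126). Its relative Clk4 fell with it (-0.47 ± 0.13, adjusted p = 0.265), and no other of 26 splicing regulators was called. Dcn, decorin, a small proteoglycan of collagen fibres, went from 82.00, 94.3 and 89.4 FPKM in control up to 123, 117 and 109 and back to 76.6, 81.8 and 79.1 (log2 difference -0.55 ± 0.09, adjusted p = 0.127). Of 24 immediate early genes 2 fell back, the orphan receptor gene Nr4a2 (-0.77 ± 0.32, adjusted p = 0.454) and Btg2 (-0.83 ± 0.35, adjusted p = 0.455), and 1, Ier5, rose (0.50 ± 0.19, adjusted p = 0.41). Over the whole list the median log2 difference was 0.22, which went from -0.05 without VILI 0 h replicate 2 to 0.39 without VILI 0 h replicate 3 over the fits without 1 library, and no MAP kinase phosphatase was called among 9. Without replicate 1, 5 immediate early genes rose and none fell. When single libraries were left out, the call was lost for Nr4a2 (7 of the 9 libraries), Btg2 (6 of the 9 libraries) and Ier5 (3 of the 9 libraries).

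Of 22 lipid and fasting genes, 7 fell, none rose and the others were not called. The median log2 difference was -0.39, with medians of -0.74, -0.20 and -0.21 in the 3 VILI 6 h libraries. The list median went from -0.47 without VILI 6 h replicate 2 to -0.20 without VILI 6 h replicate 1 over the fits without 1 library. Cd36, the fatty acid importer, read 249, 309.9 and 328 FPKM in control, 545, 409.8 and 436 in VILI 0 h and 237, 322 and 327 in VILI 6 h (log2 difference -0.66 ± 0.17, adjusted p = 0.258). The VILI 6 h values lay inside or next to the control range and below every VILI 0 h value. Acaa2, the last enzyme of the mitochondrial fatty acid spiral, behaved likewise, at 49.7, 48.6 and 41.1 FPKM and then 31.98, 39.8 and 33.3 FPKM (log2 difference -0.41 ± 0.11, adjusted p = 0.271). Acot2 (-0.40 ± 0.13, adjusted p = 0.362), Ucp3 (-0.61 ± 0.25, adjusted p = 0.451), Acadm (-0.32 ± 0.12, adjusted p = 0.415) and the fatty acid carrier Fabp3 (-0.73 ± 0.22, adjusted p = 0.305) also fell. The 2 fasting genes that had risen most at VILI 0 h were not called: Pdk4 read 30.7, 15.6 and 29.4 FPKM and then 2.24, 19.2 and 22.6 FPKM (adjusted p = 0.604), and Angptl4 read 47.1, 33.1 and 46.6 FPKM and then 2.87, 43.8 and 47.1 FPKM (adjusted p = 0.692). For both, replicate 1 of VILI 6 h was at the control level and the other 2 near VILI 0 h. Without replicate 1, where 16.4% of all genes fell and 8.14% rose, 9 of the 22 fell and 2 rose. Fits without 1 library lost the call of Acot2 (VILI 0 h replicate 1), Ucp3 (5 of the 9 libraries) and Acadm (3 of the 9 libraries).

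Of 13 alveolar macrophage genes 6 fell and none rose, with a median log2 difference of -0.35, where 5.57% of all genes fell. Against control the list median was 0.46 at VILI 0 h, with 6 genes called up and none down. At VILI 6 h it was still above control, at 0.22, with 4 called up and 2 down. Relative to the VILI 0 h mean, the medians of the 3 VILI 6 h libraries lay close together, at -0.26, -0.28 and -0.36. Ear1 and Ear2, ribonucleases of alveolar macrophages and eosinophils that resemble each other, went from 32.8, 26.6 and 17.6 FPKM to 12.03, 12.5 and 10.6 FPKM (log2 difference -1.08 ± 0.24, adjusted p = 0.213) and from 83.9, 91.1 and 66.8 FPKM to 60.8, 46.1 and 45.2 FPKM (log2 difference -0.67 ± 0.18, adjusted p = 0.265). Both had been above control at VILI 0 h. Siglecf, a sialic acid receptor of the same cells, read 2.60, 2.37 and 3.35 FPKM in control, 6.37, 5.37 and 4.84 in VILI 0 h and 3.62, 3.23 and 3.56 in VILI 6 h (log2 difference -0.65 ± 0.17, adjusted p = 0.263), but its row with the highest mean FPKM alone gave a difference of 0.50. Fabp1, a fatty acid binding protein, fell below control, from 6.26, 4.004 and 2.42 FPKM to 1.52, 1.15 and 1.73 FPKM against 3.14, 2.80 and 2.99 in control (log2 difference -1.38 ± 0.31, adjusted p = 0.213). Atp6v0d2 (-0.27 ± 0.11, adjusted p = 0.429) and Car4, also an endothelial gene, completed the 6. The count was 8 without replicate 1, where 16.4% of all genes fell, and 6 without replicate 3, where 4.94% fell. The list median went from -0.40 without VILI 6 h replicate 1 to -0.23 without VILI 6 h replicate 3 over the fits without 1 library. It was -0.14 in genes with a mean FPKM of at least 5. The summed level of the 13 genes was 775 FPKM in VILI 6 h replicate 1, 364.5 in replicate 2 and 508.5 in replicate 3, against 517 to 588 in VILI 0 h, so the sum, which follows the most abundant genes, did not fall in every library. Leaving out 1 library at a time ended the call of Atp6v0d2 (4 of the 9 libraries).

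**Figure D4:**
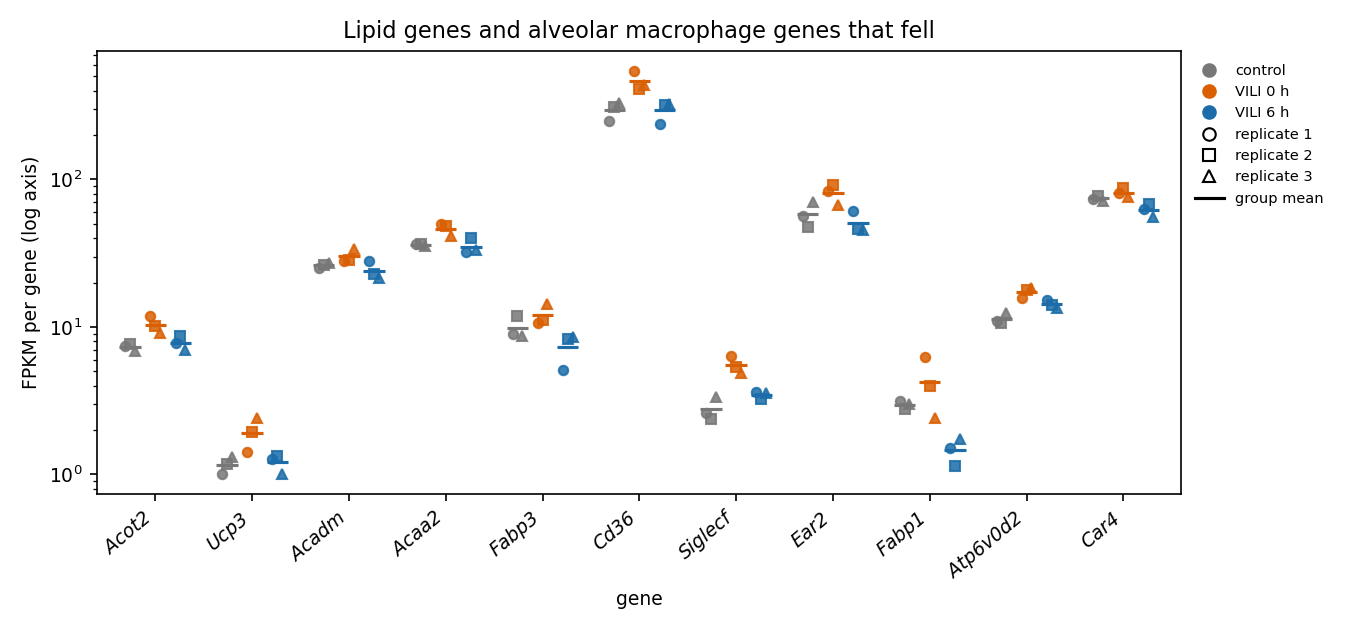
FPKM per gene on a log axis for 6 lipid genes (Acot2 to Cd36) and 5 alveolar macrophage genes (Siglecf to Car4) that fell between VILI 0 h and VILI 6 h, in control (grey), VILI 0 h (orange) and VILI 6 h (blue), with 1 marker shape per replicate and a bar at each group mean. The VILI 0 h mean is the highest of the 3 groups in all 11 genes, and Fabp1 falls below control to 1.52, 1.15 and 1.73 FPKM.

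The returning genes that rose had been low as ventilation ended. Socs1, an inhibitor of cytokine receptor signals, read 3.56, 3.22 and 3.07 FPKM in control, 2.002, 1.97 and 1.60 in VILI 0 h and 3.85, 3.18 and 6.15 in VILI 6 h (log2 difference 1.15 ± 0.24, adjusted p = 0.166). VILI 0 h stood below the other groups without overlap. Cbl, a ubiquitin ligase that ends receptor signals, read 6.74, 7.87 and 7.38 FPKM and then 19.1, 18.4 and 18.4 FPKM (log2 difference 1.34 ± 0.25, adjusted p = 0.145), with control replicate 2, at 8.58 FPKM, nearer to VILI 0 h than to the other controls. Brinp1 (1.42 ± 0.30, adjusted p = 0.17) and Ptgir, the prostacyclin receptor gene (1.14 ± 0.30, adjusted p = 0.265), rose to near control. Brinp1 was tested only through its VILI 6 h level. Disp2 went from 1.44, 1.53 and 1.67 FPKM to 11.7, 4.94 and 2.74 FPKM against 10.6, 7.03 and 7.45 in control, so that replicate 1 had regained the control level and replicate 3 had not (log2 difference 1.75 ± 0.43, adjusted p = 0.246). Ide, the insulin-degrading enzyme, was listed at 0 in all 3 VILI 0 h libraries and in control replicate 1, and at 9.71, 5.30 and 5.11 FPKM in VILI 6 h. Slc30a4 was listed at 0 in VILI 0 h replicates 2 and 3 and read 4.95, 5.19 and 6.34 FPKM in VILI 6 h. Ppp2r5b was listed at 0 in all control libraries and in VILI 6 h replicates 1 and 3, and at 4.07, 4.83 and 4.88 FPKM in VILI 0 h. Such exact zeros beside steady levels can be failed estimates, so no fold is given for these 3 genes. Calls that ended when 1 library was left out were those of Slc30a4 (VILI 0 h replicate 2 or 3) and Ppp2r5b (5 of the 9 libraries).

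Genes that moved further upwards numbered 34, and those described here are of varied roles. Emilin2, a matrix glycoprotein, read 3.32, 2.85 and 3.22 FPKM in control, 3.67, 10.9 and 6.35 in VILI 0 h and 16.1, 12.1 and 13.6 in VILI 6 h (log2 difference 1.11 ± 0.32, adjusted p = 0.301). Wfdc17, a secreted antiprotease-like protein of activated macrophages, rose to 18.4, 28.3 and 73.2 FPKM (1.44 ± 0.48, adjusted p = 0.362), and Ms4a4a, a macrophage surface protein, to 9.09, 17.03 and 23.1 FPKM (1.09 ± 0.39, adjusted p = 0.396). Pirb, an inhibitory receptor of myeloid cells, rose in both steps (0.83 ± 0.31, adjusted p = 0.407), as did the neighbouring gene Gm14548 (0.90 ± 0.32, adjusted p = 0.396), but Pirb and its relatives are much alike and reads may be shared. Lrg1, an acute-phase glycoprotein, read 50.1, 33.2 and 52.4 FPKM and then 45.6, 78.4 and 135 FPKM (0.82 ± 0.35, adjusted p = 0.464). Gsr, glutathione reductase, rose from 23.2, 24.7 and 22.1 FPKM in control to 40.4, 39.4 and 40.9 and then 46.2, 47.9 and 67.8 (log2 difference 0.40 ± 0.14, adjusted p = 0.38). Of the 34 genes, 29 were also called without replicate 1 and 9 without replicate 3. When single libraries were left out, the call was lost for Wfdc17 (VILI 0 h replicate 1), Ms4a4a (3 of the 9 libraries), Pirb (VILI 6 h replicate 3), Gm14548 (VILI 0 h replicate 1 or VILI 6 h replicate 3) and Lrg1 (7 of the 9 libraries).

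Fewer genes, 25, moved further downwards. Efna1, a ligand of ephrin receptors, fell from 47.6, 43.7 and 40.4 FPKM in control to 38.8, 38.6 and 26.6 and then 17.7, 20.3 and 18.5 (log2 difference -0.86 ± 0.15, adjusted p = 0.138). Mfap5, a microfibril protein, fell likewise, to 10.9, 14.3 and 8.70 FPKM (log2 difference -0.89 ± 0.19, adjusted p = 0.199). Ms4a1, the B cell surface protein CD20, read 5.93, 4.86 and 2.14 FPKM and then 1.35, 2.67 and 2.03 FPKM (-0.99 ± 0.36, adjusted p = 0.408). The hormone receptor genes Ptgfr (-0.77 ± 0.25, adjusted p = 0.347) and Pgr (-0.77 ± 0.32, adjusted p = 0.449) fell also. Fits without 1 library lost the call of Ms4a1 (3 of the 9 libraries) and Pgr (5 of the 9 libraries).

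The largest late fall was that of Cyp26b1, which breaks down retinoic acid. It read 8.32, 9.20 and 7.44 FPKM in VILI 0 h and 3.75, 0.734 and 0.954 FPKM in VILI 6 h (log2 difference -2.48 ± 1.04, adjusted p = 0.454), but control replicate 2 was itself low (27.2, 1.30 and 22.5 FPKM). Esr2, oestrogen receptor beta, fell from 1.65, 2.73 and 3.36 FPKM to 1.03, 0.956 and 0.306 FPKM (log2 difference -1.71 ± 0.43, adjusted p = 0.246). Hepacam2, a cell adhesion protein of secretory cells, fell from 1.54, 1.77 and 1.66 FPKM to 0.627, 0.777 and 0.569 FPKM with control at 2.06, 2.19 and 2.27 (log2 difference -1.22 ± 0.20, adjusted p = 0.127). Lum, lumican, a proteoglycan of fibroblasts, fell below control to 3.07, 3.64 and 3.08 FPKM (log2 difference -0.90 ± 0.19, adjusted p = 0.166), and Plk2, a p53 target, fell (-1.05 ± 0.33, adjusted p = 0.337). Mis12, a kinetochore protein, was called although replicate 1 lay within the VILI 0 h range. It read 8.38, 1.01 and 2.12 FPKM at VILI 6 h against 7.40, 9.30 and 9.24 FPKM at VILI 0 h (-1.66 ± 0.59, adjusted p = 0.396). Haemoglobin genes fell as well, among them Hbb-bs from 2189, 2088 and 1973 FPKM to 172, 1271 and 1492 FPKM (-1.59 ± 0.68, adjusted p = 0.459), with replicate 1 lowest, as in the erythroid sum given above. The others of the 4 of 7 erythroid genes that fell were Hbb-bt (-1.58 ± 0.67, adjusted p = 0.458), the anion exchanger gene Slc4a1, tested only through its VILI 0 h level (-1.82 ± 0.64, adjusted p = 0.389), and Bpgm, which sets the oxygen affinity of haemoglobin (-0.37 ± 0.14, adjusted p = 0.42), and the count was 3 without replicate 1 and 7 without replicate 3. P2ry10, a lysophosphatidylserine receptor of lymphocytes, fell from 9.49, 5.24 and 8.07 FPKM to 1.40, 3.80 and 3.95 FPKM (-1.38 ± 0.38, adjusted p = 0.275). Leaving out 1 library at a time ended the call of Cyp26b1 (5 of the 9 libraries), Mis12 (4 of the 9 libraries), Hbb-bs (6 of the 9 libraries), Hbb-bt (6 of the 9 libraries), Slc4a1 (3 of the 9 libraries) and Bpgm (4 of the 9 libraries). With single libraries left out, the log2 difference spread from -3.16 (without VILI 6 h replicate 1) to -2.06 (without VILI 6 h replicate 2) for Cyp26b1 and from -2.47 (without VILI 6 h replicate 1) to -1.0 (without VILI 6 h replicate 2) for Mis12. In fits without 1 library the log2 difference ran from -2.15 (without VILI 6 h replicate 3) to -0.6 (without VILI 6 h replicate 1) for Hbb-bs and from -2.16 (without VILI 6 h replicate 3) to -0.59 (without VILI 6 h replicate 1) for Hbb-bt. Over the fits that left out 1 library, the log2 difference ranged from -2.47 (without VILI 6 h replicate 3) to -1.24 (without VILI 6 h replicate 1) for Slc4a1.

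No gene of the neutrophil list was called between the times, although Cd177, which is not in the list, rose as given above. None of the 16 tested rose or fell with all libraries, and the median log2 difference was 0.17, which went from -0.21 without VILI 6 h replicate 3 to 0.79 without VILI 6 h replicate 1 over the fits without 1 library, while 14 of the 16 had been called upwards at VILI 0 h against control and 15 at VILI 6 h. S100a8, a subunit of the neutrophil cytosolic protein calprotectin, read 15.01, 9.94 and 12.5 FPKM in control, 161, 279.6 and 203 in VILI 0 h and 136, 199 and 545 in VILI 6 h (adjusted p = 0.91). The chemokine receptor gene Cxcr2 read 10.6, 20.8 and 23.3 FPKM and then 11.6, 19.8 and 26.99 FPKM (adjusted p = 0.956). The median of the list relative to the VILI 0 h mean was -0.72 in replicate 1, 0.33 in replicate 2 and 1.29 in replicate 3, and without replicate 1, 7 of the 16 rose. Camp and Ly6g were tested only through their VILI 6 h level, and the 14 others had a median log2 difference of 0.10.

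Stress hormone targets separated the VILI 6 h libraries. The median of 16 glucocorticoid targets, relative to the VILI 0 h mean, was -2.42 in replicate 1, 0.16 in replicate 2 and 0.46 in replicate 3. Fkbp5, a chaperone that restrains the glucocorticoid receptor, read 4.62, 4.43 and 3.53 FPKM in control, 86.3, 46.5 and 96.5 in VILI 0 h and 6.73, 81.6 and 107 in VILI 6 h (adjusted p = 0.778). Replicate 1 was thus near control and the other 2 were within or above the VILI 0 h range. Zbtb16 and Per1 were lowest in replicate 1 too, Zbtb16 at 8.48, 141 and 119 FPKM (adjusted p = 0.636) and Per1 at 8.05, 63.2 and 58.7 FPKM (adjusted p = 0.69). Only Tsc22d3, a mediator of glucocorticoid action, fell, from 206, 253 and 346 FPKM to 51.96, 199 and 192 FPKM without overlap (log2 difference -1.06 ± 0.46, adjusted p = 0.469), and Lcn2, in this list as well, rose. Without replicate 1, 3 of the 16 rose and none fell, and without replicate 3, 1 rose and 3 fell. Calls that ended when 1 library was left out were those of Tsc22d3 (6 of the 9 libraries). Across the leave-one-out fits the log2 difference varied from -1.39 (without VILI 6 h replicate 2) to -0.42 (without VILI 6 h replicate 1) for Tsc22d3.

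The remaining lists held few called genes. None was called among 34 proteasome subunits, 21 cholesterol genes, 14 alveolar type 2 genes, 11 alveolar type 1 genes, 11 club and ciliated genes, 14 T and natural killer cell genes, and 14 monocyte and interstitial macrophage genes. Their medians lay between -0.18 and 0.26. Without replicate 1, where 16.4% of all genes fell and 8.14% rose, 8 cholesterol genes, 4 alveolar type 2 genes, 3 alveolar type 1 genes and 4 club and ciliated genes fell, while 2 proteasome genes rose and, of the monocyte and interstitial macrophage genes, 3 rose and 1 fell. Without replicate 3, 5 T and natural killer cell genes and 1 monocyte and interstitial macrophage gene fell, and 1 alveolar type 1 gene and 1 club and ciliated gene rose. Of 24 unfolded protein and integrated stress response genes 2 rose, Xbp1 (0.49 ± 0.11, adjusted p = 0.213) and Asns (0.44 ± 0.16, adjusted p = 0.409), and the endoplasmic reticulum chaperone gene Dnajb9 fell (-0.33 ± 0.08, adjusted p = 0.246). Without replicate 1, 2 of the 24 rose and 7 fell. Of 18 NRF2 targets 2 rose, Gsr and G6pdx, which feeds glutathione reduction (0.44 ± 0.12, adjusted p = 0.275), and without replicate 1, 5 rose and 1 fell. Gsta1, not called, was tested only through its VILI 6 h level. Of 6 metallothionein and zinc transporter genes 1 rose, Slc39a8, and 4 did without replicate 1. Neither of the cold-inducible genes Cirbp (adjusted p = 0.948) and Rbm3 (adjusted p = 0.978) was called. Of 14 fibroblast and smooth muscle genes 2 fell, Dcn and Lum. The core clock list had 2 rises among 19, Bhlhe40 (0.99 ± 0.43, adjusted p = 0.47) and Cry1 (0.53 ± 0.22, adjusted p = 0.458). Of 19 p53 targets 2 rose, the cell death gene Bbc3 (0.37 ± 0.16, adjusted p = 0.472) and Phlda3 (0.49 ± 0.19, adjusted p = 0.423), and 3 fell, Sesn1 (-0.89 ± 0.38, adjusted p = 0.469) besides Plk2 and Btg2. Among 4 EGF receptor ligands tested, Hbegf rose back towards control (0.61 ± 0.14, adjusted p = 0.236). Of 13 YAP and stretch targets 2 rose, Ankrd1 (0.50 ± 0.22, adjusted p = 0.473) and Tead1 (0.34 ± 0.09, adjusted p = 0.281). Of 7 B cell genes only Ms4a1 fell, and of 10 cardiac muscle genes only Sln fell (-0.67 ± 0.27, adjusted p = 0.446). When single libraries were left out, the call was lost for Asns (3 of the 9 libraries), Bhlhe40 (6 of the 9 libraries), Cry1 (7 of the 9 libraries), Bbc3 (6 of the 9 libraries), Phlda3 (3 of the 9 libraries), Sesn1 (6 of the 9 libraries), Ankrd1 (7 of the 9 libraries) and Sln (5 of the 9 libraries).

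**Figure D5:**
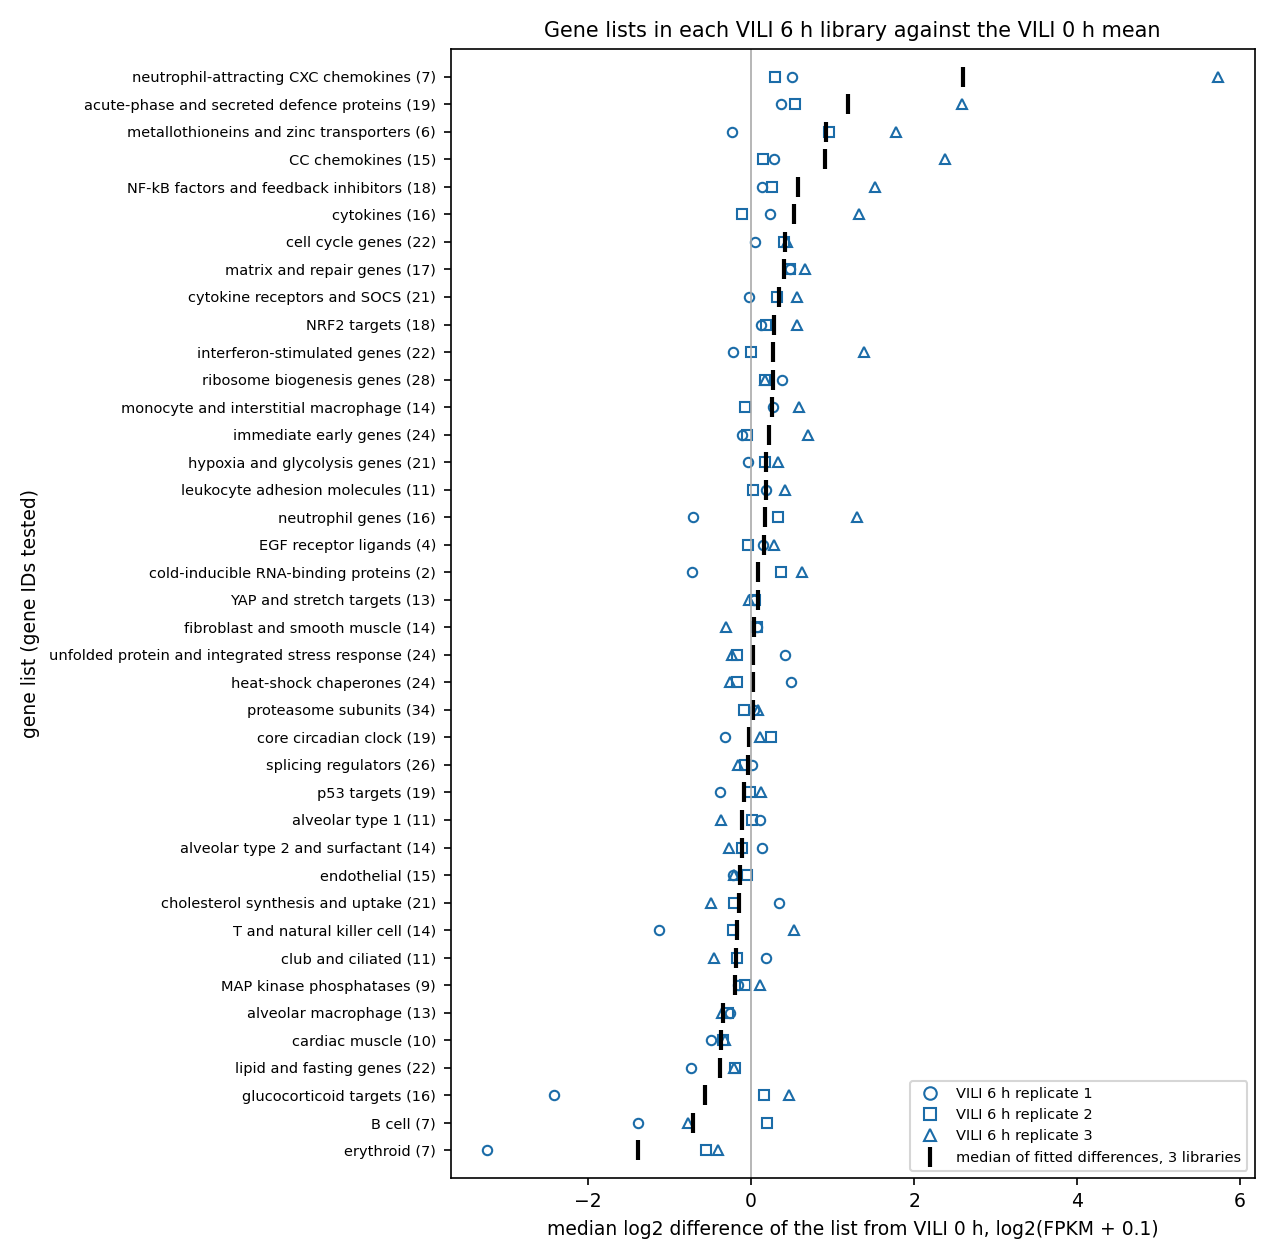
Median log2 difference of each gene list in each VILI 6 h library from the VILI 0 h mean (blue markers, 1 shape per replicate) and the median of the fitted differences over the 3 libraries (black bar), on log2(FPKM + 0.1), with the gene identifiers tested in brackets. Replicates lie close together for alveolar macrophage genes (-0.26, -0.28 and -0.36), whereas erythroid genes in replicate 1 lie at -3.24 and CXC chemokines in replicate 3 at 5.73.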

How the data were processed

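Lung RNA of 3 control, 3 VILI 0 h and 3 VILI 6 h libraries was analysed from the FPKM values of transcripts that the authors deposited. They removed low-quality reads, aligned the rest with TopHat2 2.0.9 over Bowtie2 2.0.6, assembled transcripts and estimated FPKM with Cuffdiff 2.1.1, with GRCm38 given as the build in the submitters' processing notes. The labels and the study's methods differ on the library kit and sequencer. The table held 60108 rows and no counts, so precision was judged from the spread between libraries. The read totals per library in the study's supplement were not used here.

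FPKM were summed per gene identifier, which covers 1 row or more (8542 of the tested genes had more than 1 row, 65.3%). Of 23713 Ensembl identifiers 23580 matched GENCODE M21, which gave names, types and positions. Protein-coding genes with a mean FPKM of at least 1 over 9 libraries were tested on the scale of log2(FPKM + 0.1) by limma 3.58.1 (R 4.3.3), using lmFit and a trended eBayes with group as the only factor, so that the 3 groups shared 1 estimate of the spread. Tests were two-sided, at the study's unadjusted P of 0.05, with Benjamini-Hochberg adjustment over 13079 genes. On this scale the change of a gene near 0.1 FPKM is understated. Positive and negative values are VILI 6 h minus VILI 0 h on the log2 scale, with the standard error of the fit.

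Genes were named from those that a rule gave: the 15 largest rises and 15 largest falls with P under 0.05 and no overlap between the groups, the 8 largest in each direction of each kind of gene (returning, late, further), and any member of 40 gene lists. The lists and the comparison were chosen with earlier results of these data known. CC chemokines counted 15 identifiers because Ccl21a has 2. Members with a mean FPKM under 1 were not tested, and 1 called gene of the lipid list is counted there but not reported here. On simulated data for VILI 6 h against VILI 0 h (13079 genes), 94% of changes of 1 on the log2 scale and 98% of changes of 2 had P under 0.05, all with the right sign, and so had 5.3% of unchanged genes. An adjusted p under 0.05 was reached by 61% and 90% of these changes. The simulated noise was independent between genes and equal in spread between groups. It held no library that departed over many genes at once, as VILI 6 h replicate 1 did, so these shares may not carry over. Alternatives varied the pseudocount, the filter, the gene types, the centring, the libraries and the model, and left out each library. Figures were drawn with matplotlib 3.10.9.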

Additional observations from a re-analysis of the deposited data

How the results depend on the processing

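The number of genes called between the VILI times, 1364 with all libraries, moved by more than 1.5 times under 2 of the alternatives that changed the fit: 799 with only the 6 VILI libraries, and 3197 with limma's arrayWeights, which gave VILI 6 h replicates 1, 2 and 3 the weights 0.179, 2.28 and 0.309. With these weights 414 genes had an adjusted p under 0.05, and the returning, late and further genes numbered 715, 1733 and 376. The adjusted count of 0 became 2 with no filter on mean FPKM and 1 with only the 6 VILI libraries. Leaving out 1 library at a time gave 940 to 3205 called genes, 0 to 351 with an adjusted p under 0.05, 212 to 565 returning, 328 to 1786 late and 22 to 556 further genes. The highest counts of called, late and further genes came without VILI 6 h replicate 1, and the highest count of returning genes without VILI 6 h replicate 3. The share of called genes that rose was 46.6% with all libraries, 33.2% without VILI 6 h replicate 1, 39% with arrayWeights, 52.8% without VILI 6 h replicate 3 and 55.3% without VILI 0 h replicate 2. Using the row with the highest mean FPKM in place of the sum turned 3 named genes: Fn1 to -0.1217, Polr1e to -0.3836 and Siglecf to 0.4987. Of 146 named genes, 68 were called under every alternative tried, and 81 under every one that kept all libraries. The replicate numbers did not pair the libraries (correlations of deviations between same-numbered libraries from -0.275 to 0.0535), and a replicate block gave 1149 called genes and no adjusted call. Why the counts moved was not tested. The FPKM hold no counts, and no limit of detection was computed for low genes.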

Other observations

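A pair of gene neighbourhoods was chosen after the values were seen (positions from GENCODE M21, GRCm38). On chromosome 2, between 175129493 and 178078476, 30 tested genes lie in a row, of which 8 are named Zfp, for zinc-finger protein, and 21 are predicted Gm genes. Of these 14 fell between VILI 0 h and VILI 6 h and none rose, 28 of the 30 differences were below 0, and the median log2 difference was -0.66, against -0.03 over all genes. Zfp970 read 48.9, 31.5 and 59.05 FPKM in control, 25.7, 34.8 and 31.96 in VILI 0 h and 15.6, 19.9 and 16.4 in VILI 6 h (log2 difference -0.83 ± 0.22, adjusted p = 0.265). Gm14419 read 2.76, 2.77 and 3.80 FPKM, 2.23, 1.76 and 2.30 and 0.684, 1.10 and 0.407 in the same order (log2 difference -1.48 ± 0.32, adjusted p = 0.185). The median was -0.58 for VILI 0 h against control and -1.28 for VILI 6 h against control, and the falls between the VILI times numbered 17 without VILI 6 h replicate 1 and 14 without replicate 3. The genes of this run resemble each other, so their reads may be shared and they are not independent measurements.

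On chromosome 13, between 49504810 and 49624501, lie the 4 genes Ecm2, Aspn, Omd and Ogn, which encode leucine-rich matrix proteins. Ecm2 (log2 difference -0.76 ± 0.09, adjusted p = 0.126) and Ogn (log2 difference -0.84 ± 0.12, adjusted p = 0.126) fell with the lowest adjusted p of the late genes, and Aspn (adjusted p = 0.485) and Omd (adjusted p = 0.502) had differences of -0.44 and -1.07 that missed the threshold. Ogn, osteoglycin, read 151, 190.5 and 204 FPKM in control, 202, 207 and 223 in VILI 0 h and 119, 123 and 111 in VILI 6 h, with VILI 6 h below all other libraries.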
